A study of Homo sapiens with 6 samples.

Results

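The human genes for 14-3-3 proteins were followed in HEK293 cells with and without FAM60A. The family comprised 7 genes, YWHAB, YWHAE, YWHAG, YWHAH, YWHAQ, YWHAZ and SFN, chosen by name and matched to the Ensembl identifiers of the count table. They were 7 of the 62754 genes listed, and all 7 were among the 20992 genes with enough counts to be tested. In the FAM60A-knockout libraries YWHAE fell and SFN rose, while the differences of the other 5 genes were not called. Control replicate 3 lay close to the knockout libraries for YWHAB, YWHAG, YWHAH and YWHAQ, below them for YWHAZ, and nearer to the other controls for YWHAE and SFN.

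Proteins of the 14-3-3 family are small acidic adaptors that pair with each other and bind partner proteins at phosphorylated serine or threonine residues. Binding can hold a partner in the cytoplasm, mask a site or keep an enzyme inactive, as known for the transcriptional co-activators YAP1 and TAZ after phosphorylation by LATS kinases, for RAF kinases and for CDC25 phosphatases. Each isoform has a gene of its own, and most tissues express several of them together, whereas SFN, the sigma isoform, is known from epithelia and as a target of p53 after DNA damage.

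The libraries were prepared from HEK293, an adherent line from human embryonic kidney, whose characteristics in the labels read HEK293T, its derivative that carries the SV40 large T antigen. Controls 1 to 3 carried the treatment label Control, and whether they received a vector or selection is not given there. The knockout libraries 1 to 3 came from a pool of cells, not a clone, that took up Cas9 with guides against FAM60A and survived puromycin. The labels do not say that replicates were separate cultures, so p-values measure the spread between these libraries, which may be technical.

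Deposited totals ran from 88361827 to 93346824 counts per library. FAM60A, listed under its current symbol SINHCAF, averaged 117 ± 13.7 CPM in controls and 65.1 ± 3.01 CPM in knockout libraries (CPM, each gene's counts scaled by library size with TMM normalization; SD, n = 3 each). FAM60A was counted 11028, 10165 and 12792 times in controls 1 to 3 and 5684, 5793 and 5449 times in the knockout libraries. Its count was thus highest in control 3. Control replicate 3 differed at least 4-fold from either other control in 1324 to 1375 genes, and from knockout libraries in 533 to 585. Controls 1 and 2 differed that much in 1 gene, as did each pair of knockout libraries. Even these closest pairs differed beyond sampling noise, with a chi-square per gene of 13.7 to 26.5. All 6 HEK293 markers examined averaged at least 1 CPM, with a summed level of 1000 to 1730 CPM in controls and 830 to 984 CPM in knockout libraries. Their median log2 fold change was -0.70 (-0.84 without control 3), with NEFM called lower by edgeR and 3 of the 6 by DESeq2. Of all genes tested, edgeR called 8.67% lower and DESeq2 14.8%. Of 12 markers of blood, liver, endothelium, fibroblasts and keratinocytes, 10 stayed below 1 CPM on average, and COL1A1 (19.2 CPM) and COL3A1 (1.71 CPM) did not. Among the fibroblast markers, COL1A1 fell by 0.66 on the log2 scale, and DCN was counted 0, 1 and 1 times in controls and 30, 33 and 33 times in knockout libraries. The summed CPM of these markers was 23.4 to 27.2 in controls and 16.0 to 18.6 in knockout libraries, and the part of both marker lists in the results below was not tested. In bulk RNA, fewer cells expressing a gene and less RNA per cell cannot be told apart.

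The members are spread over 7 chromosomes. In GRCh38.p14, YWHAB lies on the plus strand at chr20:44885705-44908532, YWHAE on the minus strand at chr17:1344275-1400222 and YWHAG on the minus strand at chr7:76326799-76358991. YWHAH lies on the plus strand at chr22:31944535-31957603, YWHAQ on the minus strand at chr2:9583967-9630997 and SFN on the plus strand at chr1:26863149-26864456. In the GENCODE canonical transcripts SFN had a single exon, YWHAG and YWHAH had 2 exons each, and the other members, YWHAZ included, had 6.

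The coding sequences were compared because closely similar genes can share reads. Coding length varied little, from 738 bases in YWHAQ to 768 in YWHAE. Over the 21 pairs, identity ran from 61.3% between YWHAE and SFN to 78.5% between YWHAG and YWHAH, and the longest exact stretch common to any pair was 39 bases. YWHAE was the least similar member on average, with a mean identity of 64.4% to the other 6, against 70.1% for YWHAQ. A conserved stretch of 60 coding bases shows the similarity, with capitals at the 37 positions that are the same in all 6 genes shown (GENCODE transcripts). It starts at coding base 490 in YWHAB and SFN, 493 in YWHAE, 499 in YWHAG and YWHAH and 484 in YWHAQ.
YWHAB: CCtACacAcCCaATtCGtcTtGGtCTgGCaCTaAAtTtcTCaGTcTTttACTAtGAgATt
YWHAE: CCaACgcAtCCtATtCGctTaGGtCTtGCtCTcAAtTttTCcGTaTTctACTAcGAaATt
YWHAG: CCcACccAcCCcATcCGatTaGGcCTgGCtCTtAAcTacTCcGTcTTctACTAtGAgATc
YWHAH: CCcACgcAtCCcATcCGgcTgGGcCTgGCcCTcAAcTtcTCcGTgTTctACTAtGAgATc
YWHAQ: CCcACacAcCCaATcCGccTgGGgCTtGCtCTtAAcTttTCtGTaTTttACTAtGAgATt
SFN: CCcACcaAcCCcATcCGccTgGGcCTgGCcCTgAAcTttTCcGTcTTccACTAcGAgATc
Against the YWHAE stretch, the others differed at 14 positions in YWHAQ, 15 in YWHAH, 16 in YWHAB and YWHAG and 17 in SFN.

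YWHAE encodes the epsilon isoform, and its gene lies in the part of chromosome 17 that is lost in Miller-Dieker syndrome. It was the most abundant member in every library. Its level was 1823, 1856 and 1542 CPM in controls 1, 2 and 3 and 1140, 1264 and 1158 CPM in knockout libraries 1, 2 and 3. The groups did not overlap, and control 3 was the lowest control. YWHAE fell by 0.55 on the log2 scale with a standard error of 0.11 and an adjusted p of 0.0261 in edgeR's quasi-likelihood test. At the same threshold 8.67% of the 20992 genes tested were called lower in the knockout, and 20.1% had all knockout libraries below all controls. By rank of mean CPM, YWHAE moved from place 28 among the genes tested to place 70. Without control 3 the log2 fold change was -0.66 (adjusted p = 9.2e-07), and over the 13 alternative settings the adjusted p ran from 9.2e-07 to 0.136, with 6 of them calling the gene.

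SFN encodes the sigma isoform, which binds the mitotic kinase complex of CDK1 and cyclin B in the cytoplasm. It was the least abundant member and moved the opposite way. Reads counted for it numbered 711, 929 and 904 in controls 1 to 3 and 1524, 1757 and 1534 in the knockout libraries. This corresponded to 7.31, 9.67 and 9.36 CPM and to 18.1, 20.03 and 17.4 CPM. The groups did not overlap, and control 3 lay within the range of the other controls. SFN rose 2.11-fold in mean CPM, and edgeR fitted a difference of 1.07 in log2, with a standard error of 0.16 and an adjusted p of 0.0107. Of all genes tested, 7.96% were called higher, 3.34% were called higher with a log2 fold change of at least 1, and 21.5% had all knockout libraries above all controls. SFN was called in 9 of the 13 alternatives, over which the adjusted p ran from 1.19e-08 to 0.0787.

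YWHAG encodes the gamma isoform, abundant in brain and muscle. It was measured at 313.9, 314.1 and 215.0 CPM in controls 1 to 3 and 195.7, 210.1 and 200.8 CPM in the knockout libraries. The groups did not overlap, but control 3 was within 5 CPM of knockout 2. The edgeR fit gave a log2 fold change of -0.47 with a standard error of 0.16 and an adjusted p of 0.0928. The gene was not called, whereas DESeq2 gave an adjusted p of 0.0496, and the 13 alternatives together spanned 1.25e-07 to 0.267.

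YWHAH encodes the eta isoform. Its level was 175, 183 and 110 CPM in controls 1 to 3 and 102, 116 and 96.0 CPM in the knockout libraries, so that control 3 lay inside the knockout range. The log2 fold change from edgeR was -0.58, with a standard error of 0.20 and an adjusted p of 0.101. The fitted difference was as large as that of YWHAE, and its standard error was larger.

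YWHAQ encodes the theta isoform, also called tau, and was the second most abundant member per kilobase. It stood at 498, 510 and 366 CPM in controls 1 to 3 and 358, 386 and 342 CPM in the knockout libraries. Control 3 again lay inside the knockout range. With edgeR the log2 fold change came to -0.34, with a standard error of 0.15 and an adjusted p of 0.161.

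YWHAB encodes the beta isoform, known as a partner of RAF kinases. Its level was 389, 376 and 289 CPM in controls 1 to 3 and 275, 297 and 264 CPM in the knockout libraries, with control 3 between knockout 1 and knockout 2. The fitted log2 fold change in edgeR was -0.33, with a standard error of 0.14 and an adjusted p of 0.141.

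YWHAZ encodes the zeta isoform, a partner of many kinases that is often used as a reference gene for quantitative PCR, and its gene lies on the minus strand of GRCh38.p14 at chr8:100916523-100953382. It was measured at 630, 604 and 377 CPM in controls 1 to 3 and 495, 500 and 448 CPM in the knockout libraries. Control 3 was the lowest of all 6 libraries, below every knockout library, a position in which it stood for 25.1% of the genes tested. In edgeR's fit the log2 fold change was -0.16, with a standard error of 0.20 and an adjusted p of 0.612. Leaving out 1 library moved it from -0.06 (without control 1, adjusted p = 0.884) and -0.07 (without control 2) to -0.39 (without control 3, adjusted p = 0.000282), and to -0.10 without knockout 3.

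**Figure D1:**
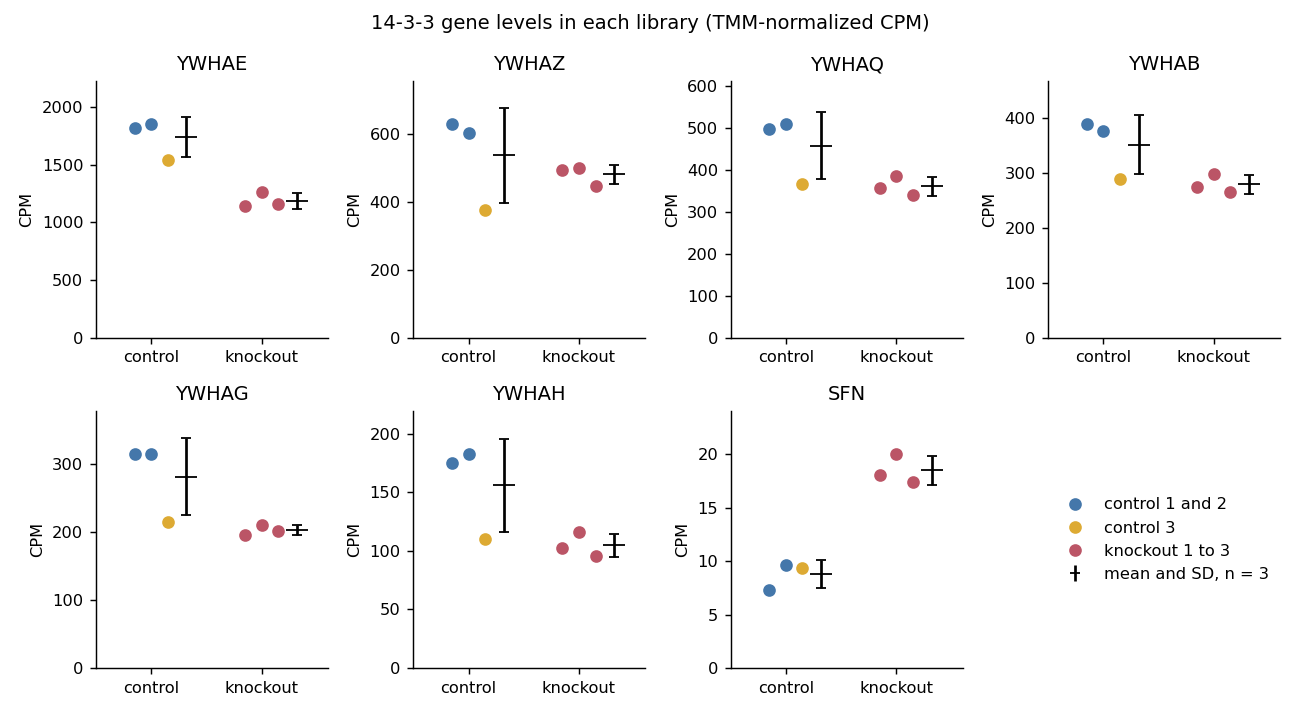
Level of each 14-3-3 gene in each library, in TMM-normalized CPM on linear axes that start at 0 and differ between genes. Points are libraries and bars are the mean and SD of 3. Control replicate 3 sits at or below the knockout libraries for YWHAZ, among or next to them for YWHAQ, YWHAB, YWHAG and YWHAH, and with the other controls for SFN.

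Over the 7 genes, 1 was called lower and 1 higher, 6 had a fitted difference below 0, and the median log2 fold change was -0.34. Of all genes tested, 8.67% were called lower and 7.96% higher, 50.6% had a fitted difference below 0, and the median was -0.01. In the fit without control 3, all 7 genes were called, 6 lower and SFN higher, at log2 fold changes from -0.80 for YWHAH to 1.09 for SFN. That fit called 33.2% of 21686 genes lower and 32.4% higher and 65.6% in either direction, and the members' median was -0.51. With a log2 fold change of at least 1 as an added condition, SFN was the single member called in both fits. Under that condition 3.34% of genes were called higher and 3.72% lower with all libraries, and 13.1% and 9.75% without control 3. The count of members called thus depended on every library, and it rose only without control 3. From 2 with all libraries it went to 1 without control 1 or control 2, when SFN alone was called, and to 0 without knockout 1, 2 or 3, when 2 to 3 members had an unadjusted p under 0.05 in edgeR. Calls over all genes fell as well, from 16.6% to 4.89% and 3.71% without control 1 or 2, and to 0.763%, 2.31% and 0.87% without knockout 1, 2 or 3.

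**Figure D2:**
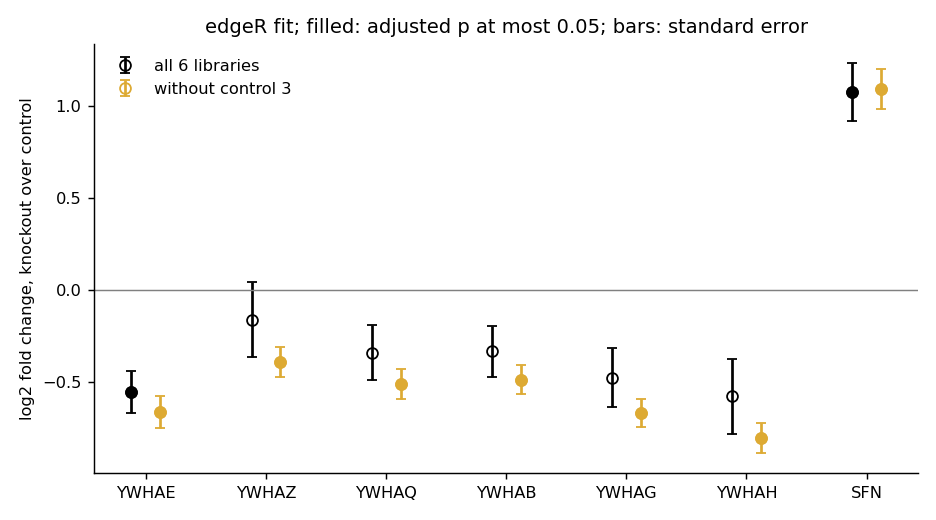
Fitted log2 fold change of knockout over control for each gene with all 6 libraries (black) and without control replicate 3 (yellow). Filled points have an edgeR adjusted p of at most 0.05 and bars are standard errors. Filled black points are YWHAE and SFN, and all 7 yellow points are filled.

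Where control 3 lay between the other controls and the knockout libraries differed between members. Distances are given as the difference of mean log2 CPM, with no test, since control 3 is a single library. From controls 1 and 2 to control 3, YWHAE differed by -0.26, YWHAB by -0.40, YWHAQ by -0.46, YWHAG by -0.55, YWHAH by -0.70, YWHAZ by -0.71 and SFN by 0.15. As a share of the distance from controls 1 and 2 to the knockout mean, these values were 40.3% for YWHAE, 88.3% for YWHAB, 96.2% for YWHAQ, 86.0% for YWHAG, 89.7% for YWHAH, 196% for YWHAZ and 13.6% for SFN. The median of that share was 75.6% over 12452 genes that were called without control 3 and had at least 10 counts in every library. The YWHAE and SFN shares lay below this median, and those of the other members lay above it. Set against control 3 alone, the knockout mean was 0.38 lower for YWHAE and 0.98 higher for SFN, whereas for YWHAB, YWHAG, YWHAH and YWHAQ it was lower by 0.02 to 0.09. For YWHAZ the knockout mean was 0.35 higher than control 3.

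**Figure D3:**
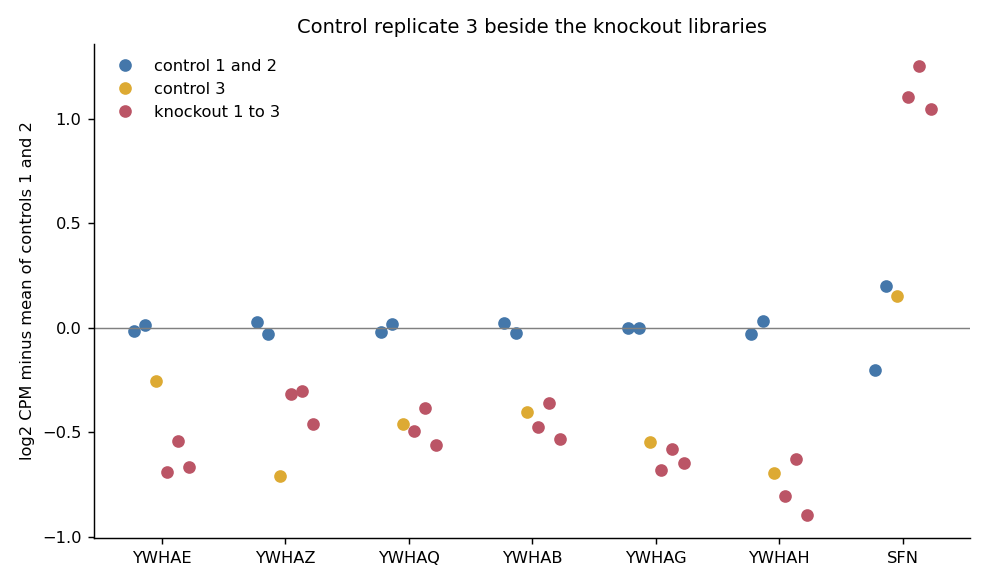
Log2 CPM of each library minus the mean of controls 1 and 2, for each 14-3-3 gene. Control replicate 3 (yellow) lies 0.26 below the other controls for YWHAE and 0.71 below them for YWHAZ, where it is under every knockout library.

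The family as a whole took up 0.402%, 0.397% and 0.301% of all counts in controls 1, 2 and 3, and 0.246%, 0.268% and 0.246% in the knockout libraries. Summed over the 7 genes, the level was 3837, 3853 and 2908 CPM in controls 1 to 3 and 2583, 2793 and 2527 CPM in the knockout libraries. The mean was 3533 ± 541 CPM in controls and 2634 ± 140 CPM in knockout libraries (SD, n = 3 each), a change of -25.4%. Control 3 alone changed by -24.4% from the mean of controls 1 and 2, and the knockout mean by -31.5%. Of the net fall of 898 CPM between the group means, YWHAE made up 61.6%, YWHAQ 10.7%, YWHAG 8.77%, YWHAB 8.05%, YWHAZ 6.27% and YWHAH 5.72%, while SFN was 9.72 CPM higher in the knockout mean. Against controls 1 and 2 alone, YWHAE made up 53.9% of the net fall, YWHAQ 11.8%, YWHAZ 11.3%, YWHAG 9.24%, YWHAB 8.54% and YWHAH 6.13%.

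To compare members with each other, counts were divided by the length of the union of each gene's exons. In controls YWHAE led with 472 ± 46.9 CPM per kb, a level above that of 99.6% of the genes tested, followed by YWHAQ with 170 ± 29.6 CPM per kb. YWHAG (75.8 ± 15.4), YWHAH (65.2 ± 16.6), YWHAZ (62.8 ± 16.3) and YWHAB (44.4 ± 6.86) came next, all in CPM per kb. The ranges of neighbours in this order overlapped between libraries. Within each of the 3 controls, YWHAG was above YWHAH and YWHAZ above YWHAB, while YWHAH was above YWHAZ in 2 of 3. SFN was last with 6.71 ± 0.98 CPM per kb, still above 71.0% of the genes tested. In knockout libraries YWHAE (322 ± 18.1 CPM per kb) and YWHAQ (134 ± 8.33) led again. YWHAZ (56.2 ± 3.31) and YWHAG (54.6 ± 1.97) overlapped, and YWHAH (43.8 ± 4.23), YWHAB (35.3 ± 2.13) and SFN (14.1 ± 1.05) followed without overlap. The places of YWHAE, YWHAQ and SFN were the same with the length of the canonical transcript, but YWHAB then stood at place 3 in controls and YWHAG at place 6.

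The composition of the family, as each member's share of the summed counts per kb, was compared next. YWHAE held 51.2%, 51.4% and 56.1% in controls 1, 2 and 3 and 48.0%, 48.8% and 49.5% in the knockout libraries. Control 3 therefore had the largest YWHAE share of any library, farther from the knockout than controls 1 and 2. YWHAQ held 19.1%, 19.3% and 18.2% in controls and 20.6%, 20.4% and 19.9% in knockout libraries. YWHAZ held 7.63%, 7.21% and 5.91% against 8.99%, 8.32% and 8.26%. YWHAB held 5.10%, 4.85% and 4.90% against 5.40%, 5.36% and 5.28%. In these last 3 genes every knockout share was above every control share, although none of them was called at the level of its counts. SFN held 0.579%, 0.755% and 0.960% in controls and 2.15%, 2.18% and 2.09% in knockout libraries, the widest relative difference in the family.

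The shares of YWHAG, at 8.78%, 8.66% and 7.78% in controls and 8.21%, 8.08% and 8.55% in knockout libraries, overlapped. So did those of YWHAH, at 7.58%, 7.81% and 6.19% against 6.65%, 6.89% and 6.33%, with control 3 the lowest library in both genes. A two-sided exact permutation test of the share gave p = 0.1 for YWHAE, YWHAQ, YWHAZ, YWHAB and SFN, the smallest value that 3 libraries against 3 allow, 0.8 for YWHAG and 0.4 for YWHAH. Shares sum to the whole and are not independent of each other. In CPM, the groups did not overlap for YWHAE, YWHAG and SFN and overlapped for the other members. Beside these CPM values, 21.5% of all genes tested had CPM that was higher, and 20.1% lower, in all knockout libraries than in all controls. No such background was computed for shares. Shares of YWHAE, YWHAQ, YWHAZ, YWHAB and SFN, 5 of 7 members, also did not overlap when counts were used without length. There YWHAZ held 16.4%, 15.7% and 13.0% in controls and 19.2%, 17.9% and 17.7% in knockout libraries.

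**Figure D4:**
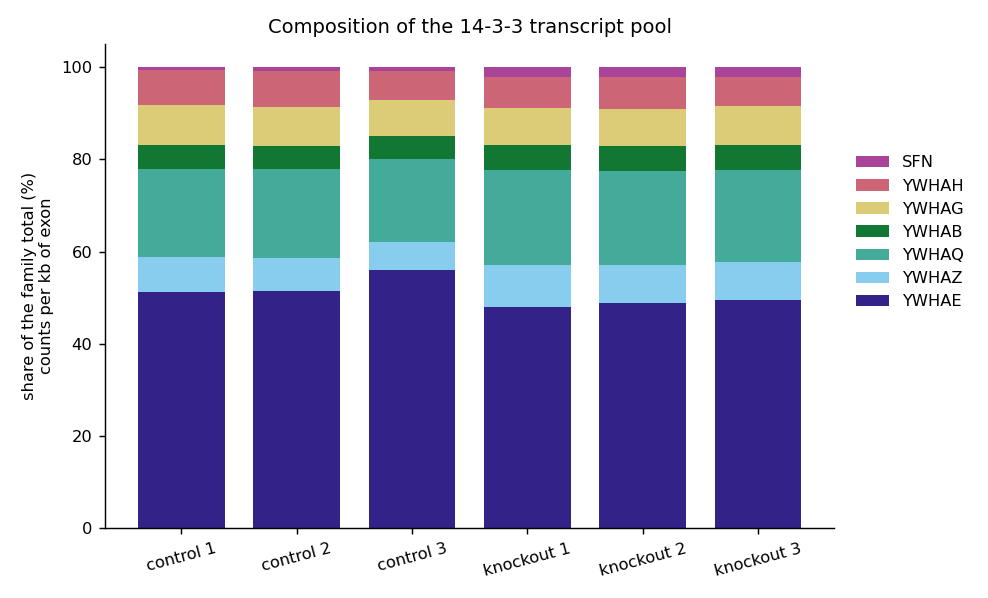
Share of each 14-3-3 gene in the family total of each library, in percent, from counts per kilobase of exon. YWHAE takes 51.2% to 56.1% in controls and 48.0% to 49.5% in knockout libraries, and the SFN band is wider in the knockout libraries.

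Processed pseudogenes, copies of the mature transcripts elsewhere in the genome, can take up reads of their parents. The table held 25 genes named as pseudogenes of a member, of which 13 had at most 3 counts in every library and 8 were tested. For YWHAZ their summed counts came to 6.35% of the parent's in controls and 7.07% in knockout libraries, and for YWHAE to 0.391% and 0.713%. YWHAZP3 and YWHAZP10, the YWHAZ copies with the longest exact matches, shared runs of 221 and 153 bases with the YWHAZ coding sequence, so their reads and those of YWHAZ are uncertain. YWHAEP5 (96.1% identity with YWHAE) was counted 597, 500 and 534 times in controls and 577, 681 and 619 times in knockout libraries and was not called with all libraries. YWHAZP4 was the only pseudogene called in that fit, with 33, 26 and 21 counts in controls and 56, 67 and 66 in knockout libraries (a log2 difference of 1.39 with an adjusted p of 0.0163 in edgeR). For comparison, that fit called 7.96% of all genes higher and 8.67% lower. Without control 3, 6 of 9 tested pseudogenes were called, 3 lower and 3 higher, beside 33.2% and 32.4% of all genes. YWHAEP5 was among those 6 (adjusted p = 0.0132 in edgeR). With pseudogene counts added to the parents, YWHAE and SFN were again the members called. YWHAH-AS1, transcribed from the opposite strand over 997 bases of YWHAH, had 86, 73 and 33 counts in controls and 22, 22 and 25 in knockout libraries, few beside the YWHAH counts of 8474 to 17558. Another gene, annotated as protein-coding on the same strand, overlapped YWHAH over 11723 bases and had 0 counts in every library. Whether reads in that overlap were left out of the YWHAH counts was not tested.

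The promoter of SFN held fewer CpG dinucleotides than those of 5 YWHA genes. RefSeq (GRCh38.p14) gave the 250 bases before the start of 6 members, all but YWHAZ. These held 29 CpG dinucleotides for YWHAE, 34 for YWHAH, 28 for YWHAQ, 23 for YWHAG and 21 for YWHAB, beside a median of 11 over 35116 promoters. SFN held 3, with a GC content of 62.8% beside a median of 58.0%, and 22.9% of promoters held fewer. The sequences of YWHAE and SFN, the members that were called, and of YWHAH, which held the most CpG, are given on the strand of the gene with each CpG in capitals. They lie at chr17:1400223-1400472 (minus strand), chr22:31944285-31944534 (plus strand) and chr1:26862899-26863148 (plus strand).
YWHAE: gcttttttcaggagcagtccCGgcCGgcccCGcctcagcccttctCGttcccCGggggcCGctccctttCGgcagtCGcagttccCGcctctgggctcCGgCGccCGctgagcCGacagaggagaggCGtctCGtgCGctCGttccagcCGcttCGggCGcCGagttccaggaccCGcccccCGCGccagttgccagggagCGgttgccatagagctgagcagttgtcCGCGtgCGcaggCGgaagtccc
YWHAH: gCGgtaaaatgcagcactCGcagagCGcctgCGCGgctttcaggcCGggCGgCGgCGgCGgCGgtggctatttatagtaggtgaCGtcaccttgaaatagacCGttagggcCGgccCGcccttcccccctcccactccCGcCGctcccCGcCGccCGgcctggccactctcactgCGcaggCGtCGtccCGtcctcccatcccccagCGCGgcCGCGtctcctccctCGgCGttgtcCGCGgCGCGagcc
SFN: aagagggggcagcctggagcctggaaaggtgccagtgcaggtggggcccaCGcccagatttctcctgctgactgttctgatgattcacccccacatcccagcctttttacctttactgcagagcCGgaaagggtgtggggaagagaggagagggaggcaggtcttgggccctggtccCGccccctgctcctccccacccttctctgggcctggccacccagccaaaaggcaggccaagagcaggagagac
Short motifs were searched on both strands. The GC box GGGCGG was found in all 6 promoters and in 42.6% of all promoters of that length. The cyclic AMP response element TGACGTCA was found in YWHAH alone, as in 1.65% of all promoters, and the TATA box TATAAA also in YWHAH alone, beside 10.7% of all. CCAAT was found in 2 of the 6 promoters and in 32.0% of all, and neither the E-box CACGTG nor the ETS motif CCGGAAGT was found in any. A match is a description of these letters.

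The 5 nearest tested protein-coding genes on each side of each member were examined for changes along the chromosome. Of the 70 neighbours, 9 (12.9%) were called lower, beside 8.67% of all genes tested, and 0 were called higher by edgeR (2 at an unadjusted p under 0.05), with a median log2 fold change of -0.23. DESeq2 called 16 lower and 1 higher, beside 14.8% and 11.7% of all genes. Limma called 10 and 0, beside 8.46% and 8.71%. Around YWHAE, 2 of 10 were called lower, NXN at -0.92 and PITPNA, a phosphatidylinositol transfer protein, at -0.73, and the median was -0.36. There 6 were lower at an unadjusted p under 0.05 in edgeR, and DESeq2 called 5 lower and limma 2. Around SFN edgeR called 0 of 10 (1 at an unadjusted p under 0.05, DESeq2 and limma 0) and the median was 0.16. The median was -0.51 around YWHAG and -0.48 around YWHAB, each with 3 of 10 called lower, and -0.16 around YWHAQ with 1. DESeq2 called 5 lower around YWHAG, 3 around YWHAB and 2 around YWHAQ, and limma 3, 3 and 2. Around YWHAH (-0.27) and YWHAZ (0.11) edgeR called 0, with 1 gene each at an unadjusted p under 0.05, while DESeq2 called 1 gene each and limma 0. Without control 3 the medians were -0.14 around YWHAB, -0.46 around YWHAE, -0.67 around YWHAG, -0.36 around YWHAH, -0.08 around YWHAQ, 0.03 around YWHAZ and 0.12 around SFN. That fit called 29 of the 70 lower and 14 higher, beside 33.2% and 32.4% of all genes. Around YWHAE and YWHAH it called 7 of 10 lower and 1 higher each, and around YWHAG 6 and 0. Around YWHAB it called 3 lower and 2 higher, and around YWHAQ 3 and 1. More neighbours were called higher than lower around YWHAZ (4 and 1) and SFN (5 and 2). Neighbours were thus lower by median around the 5 YWHA genes other than YWHAZ in both fits, and the part of this in the members' values was not tested. Of these 5, YWHAQ and YWHAB had the medians nearest 0 without control 3. Each then had 3 of 10 neighbours called lower, beside 33.2% of all genes.

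**Figure D5:**
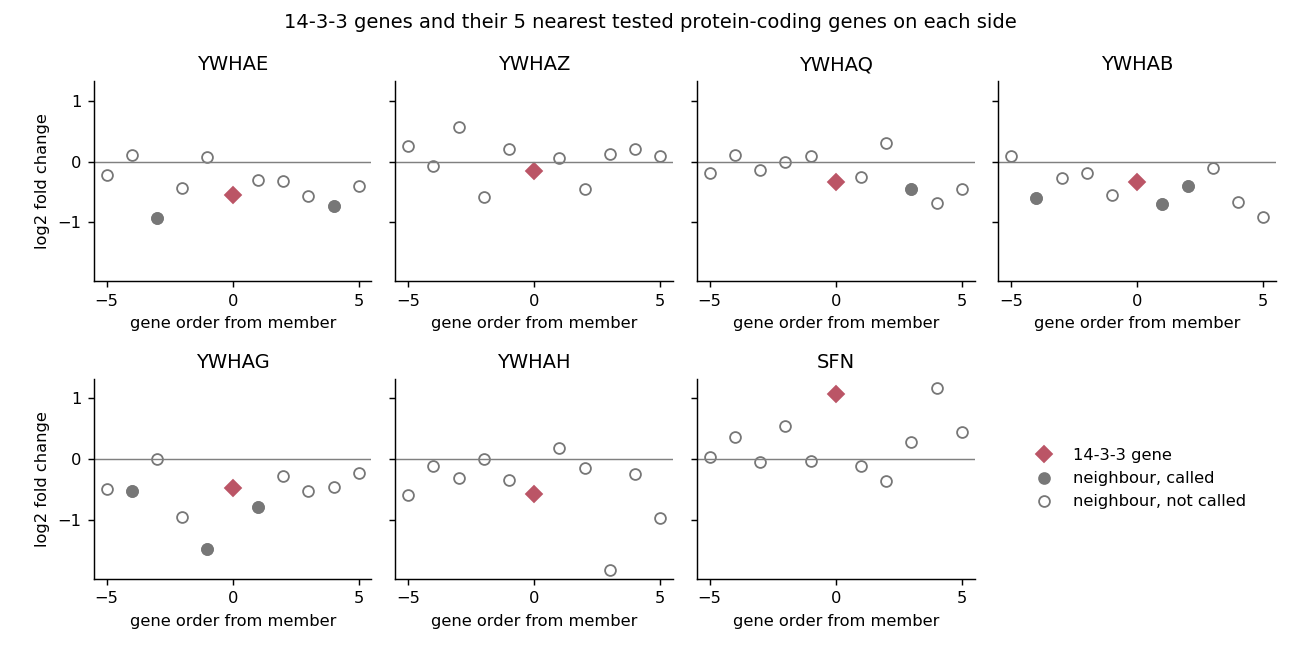
Fitted log2 fold change of each 14-3-3 gene (diamond) and of its 5 nearest tested protein-coding genes on each side (circles, filled where the edgeR adjusted p is at most 0.05), in order along the chromosome. The SFN diamond at 1.07 stands above all neighbours but the one at 1.17.

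The partners of 14-3-3 proteins were counted from a list of 40 clients, all tested. Of these, 7 were called lower and 0 higher by edgeR (3 higher at an unadjusted p under 0.05), with a median log2 fold change of -0.12. DESeq2 called 9 lower and 3 higher, and limma 5 and 2. Over all genes tested edgeR called 8.67% lower and 7.96% higher, at a median of -0.01. DESeq2 called 14.8% of all genes lower and 11.7% higher, and limma 8.46% and 8.71%. The lowest adjusted p values were those of KSR1, a scaffold of the RAF-MEK-ERK cascade, which fell by 0.97 on the log2 scale (adjusted p = 0.0217 in edgeR), ARAF, a RAF kinase, which fell by 0.51 (0.022), and IRS2, an insulin receptor substrate, which fell by 1.14 (0.0328). YAP1 was at 60.7, 58.2 and 40.5 CPM in controls and averaged 39.0 ± 1.93 CPM in knockout libraries (a log2 difference of -0.44 with an adjusted p of 0.115 in edgeR). WWTR1, which encodes TAZ, was at 25.3, 23.5 and 35.2 CPM in controls and averaged 22.8 ± 1.153 CPM in knockout libraries (-0.30, adjusted p = 0.267). Control 3 thus lay near the knockout for YAP1 and away from it for WWTR1. Without control 3, 20 clients were called lower and 8 higher, beside 33.2% and 32.4% of all genes.

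Kinases that phosphorylate 14-3-3 binding sites numbered 20, of which edgeR called 2 lower and 0 higher (4 higher at an unadjusted p under 0.05) at a median of -0.06, DESeq2 3 and 1, and limma 2 and 0. Shares of all genes called lower and higher were 8.67% and 7.96% by edgeR, 14.8% and 11.7% by DESeq2, and 8.46% and 8.71% by limma. PRKACA, a catalytic subunit of protein kinase A, fell by 0.85 on the log2 scale (adjusted p = 0.0289 in edgeR). Without control 3, 11 were called lower and 8 higher at a median of -0.24, beside 33.2% and 32.4% of all genes. Of 13 genes of the Hippo core and its effectors, edgeR called 2 lower and 0 higher (0 also at an unadjusted p under 0.05). Their median was -0.30, and DESeq2 called 4 and 0, and limma 2 and 0. The shares of all genes were the same 8.67% and 7.96% for edgeR, 14.8% and 11.7% for DESeq2 and 8.46% and 8.71% for limma. Those called by edgeR were TEAD2, a DNA-binding partner of YAP1, which fell by 0.94 (edgeR adjusted p = 0.00721), and MOB1A, an activator of LATS kinases, which fell by 0.47 (0.0234). Without control 3, 7 were called lower and 1 higher, where all genes gave 33.2% and 32.4%. YAP1 and WWTR1 stand in both the client and the Hippo lists, and the kinase list also shares genes with each of these lists.

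SFN is itself a p53 target, so 16 other targets were counted, of which edgeR called 1 higher and 2 lower at a median of -0.07, beside 7.96% and 8.67% of all genes. FAS, a death receptor, rose by 0.77 on the log2 scale (edgeR adjusted p = 0.0213). AEN, a nuclease, fell by 0.55 (0.0123) and PHLDA3, an inhibitor of AKT, fell by 0.53 (0.027). Without control 3, 5 were called higher and 4 lower, beside 32.4% and 33.2% of all genes. Of 10 epithelial genes, 7 were tested and CLDN7, a tight junction claudin, was the only one called by edgeR, from 4.396 ± 0.60 to 12.6 ± 0.45 CPM (a log2 difference of 1.52 with an adjusted p of 0.00552 in edgeR). Of all genes tested, edgeR called 7.96% higher and 8.67% lower. DESeq2 called 2 higher and 1 lower, and limma 2 higher and 0 lower (2 lower at an unadjusted p under 0.05). All genes gave 11.7% higher and 14.8% lower with DESeq2, and 8.71% and 8.46% with limma. Without control 3, edgeR called 3 of 8 tested higher and 3 lower, beside 32.4% and 33.2% of all genes.

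Genes whose level over the 6 libraries was most like that of the called members were found by Pearson correlation of log2 CPM among 14885 protein-coding genes, as a description over libraries that share their groups. For YWHAE these were SLC25A18, KLHL25 and RP9, with r of 0.999, and 142 genes reached at least 0.99. For SFN they were NAPRT (0.998), TSPAN10 (0.997) and PUF60 (0.996), and 22 genes reached that value.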

How the data were processed

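Poly(A) RNA of HEK293 cells was sequenced strand-specifically in 3 control libraries and 3 with FAM60A knocked out, grouped by their labels. The authors deposited whole-number read counts per Ensembl gene, without normalization. The submitters' processing notes name STAR 2.7.10b, featureCounts 2.0.0 and hg38, the methods name Salmon on hg38, and the labels name hg19. The annotation release is not given in the sources used here. Counts of 88361827 to 93346824 per library were fitted with edgeR 4.0.16 in R 4.3.3 (TMM, filterByExpr with a minimum count of 10, two-sided quasi-likelihood F-test, Benjamini-Hochberg adjustment over 20992 genes). A gene was called where the adjusted p was at most 0.05. Standard errors given for edgeR were derived as the absolute log2 fold change divided by the square root of the F statistic. The fit was checked on simulated counts, where it called 170 of 198 genes changed by 1 on the log2 scale and 7 unchanged genes. The simulated libraries spread less than these data and none stood apart like control 3, so the check does not cover that setting.

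Exon lengths and coding sequences came from GENCODE v44 lifted to GRCh37, and gene positions and promoters from RefSeq GRCh38.p14. Libraries were called at least 4-fold apart at genes averaging 10 counts or more, after adding 0.05 CPM. Alternatives were DESeq2 1.42.0, limma-voom on quantile-normalized values (limma 3.58.1), scaling by library size alone, testing without a filter, at least 10 counts in every library, leaving out each library, the replicate number as a block, other lengths and added pseudogene counts. Lengths of canonical transcripts were chosen after seeing the data. The members and lists were chosen with earlier results of these data known. Named genes were the members, YAP1, WWTR1, FAM60A, up to 3 called genes of each list with the lowest adjusted p, neighbours called in the direction of a called member, and the 3 genes most correlated with each called member. YWHAZP3, YWHAZP10, YWHAZP4, YWHAEP5 and YWHAH-AS1 were named after their values were seen. Amino acid sequences were not used here. A called gene of the kinase list is not reported here.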

Additional observations from a re-analysis of the deposited data

How the results depend on the processing

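The fitted direction of each of the 7 members was the same in all 13 alternative settings. The number called lower was 2 with DESeq2, where YWHAG joined YWHAE, and 0 with no filter, when 5 members had an unadjusted p under 0.05. It was 1 with limma-voom, with library size, with at least 10 counts in every library and with pseudogene counts added. Leaving out 1 library gave 0 to 6 called lower, the 6 without control 3, and 0 to 1 called higher. With the replicate block 0 were called lower and 0 higher, while 4 had an unadjusted p under 0.05. Under the block 1.94% of all genes were called, and the log2 fold change was -0.55 for YWHAE and 1.08 for SFN. Deviations of same-numbered libraries from their group means correlated at 0.01, 0.031 and -0.036. Control 3, far from the other controls, enters each control deviation, so these values cannot show whether the numbers pair the libraries. Library size without TMM moved the median of all genes by -0.11 and the family total to -30.9%.

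In counts without length, the knockout minus control difference in share was 0.64 percentage points for YWHAB, 0.79 for YWHAQ, 3.24 for YWHAZ and 0.447 for SFN. With the longest transcript it was 0.911 for SFN, and with the canonical transcript 0.71 for YWHAB and 0.862 for SFN. Without control 3, list members called higher and lower were 8 and 20 for clients, 8 and 11 for kinases, 1 and 7 for Hippo genes and 5 and 4 for p53 targets. The YWHAG share difference ran from -0.44 to 0.056 percentage points when 1 library was left out. With 3 libraries a group, permutation tests could not go below p = 0.1.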
